A study of Mus musculus with 28 samples.

Results

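Neural stem cell-like lines (miNSC in the labels) made from tail-tip fibroblasts of 1.0-year mice were compared with the fibroblasts they came from. The comparison used 10 of the 28 deposited libraries, chosen by their labels: 2 libraries of the fibroblasts and 8 of the lines. All 10 carry the Sox2-GFP label in the cell line field. The fibroblasts are labelled as having received no transcription factor. The lines fall into 4 groups of 2 libraries by cocktail: B, K and eSox17FNV (BKF), K, M and eSox17FNV (KMF), and B, K, M and eSox17FNV (4F), the last sampled at passage 8 and at passage 18. eSox17FNV is an engineered Sox17, and the labels do not spell out B, K and M. Per the labels' protocols, fibroblasts were given lentiviruses for the doxycycline-dependent activator M2rtTA and for the doxycycline-inducible factors. Doxycycline at 1 μg/mL was present for 18 days in serum-free neural medium with bFGF and EGF at 10 ng/mL each. Colonies were picked at day 20 and expanded on Matrigel in the same medium. Libraries from other sources are used below only where a result needs them: neural stem cells of 2.5-year mice at passages 2 and 5, 4F lines from ear fibroblasts of 1.0-year mice, and BKF and KMF lines from embryonic Sox2-GFP fibroblasts.

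Fibroblasts of the skin make and remodel collagen-rich matrix, pull on it through contractile actin bundles, and answer injury with cytokines. Neural stem cells are epithelial-like progenitors held in their state by SOX, POU and bHLH transcription factors and by Notch signalling, and give rise to neurons, astrocytes and oligodendrocytes. Forced expression of transcription factors can move fibroblasts to such a state without a pluripotent stage, which is called direct reprogramming. 2 questions follow from the design: which genes every cocktail changed alike, and which changed under a single cocktail.

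2 features of the libraries limit what the comparison can show. Each cocktail is represented by lines grown from picked colonies, so the effect of a cocktail and of the colony picked cannot be told apart, nor can the factors be told apart from the change of medium. The labels do not say that the paired libraries are separate cultures, so p-values measure only the spread between libraries, which may be technical. In bulk RNA, fewer cells of a type and less RNA per cell cannot be told apart.

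The deposited values are whole numbers on a common scale, with totals of 15567772 to 15571626 in the 10 libraries, and are called levels here. Sequencing depth is unknown. The 10 most abundant genes of each library share the same top level, 92914, so differences among them cannot be seen. Paired libraries differed by a median of 0.075 (fibroblasts) to 0.207 (BKF) on the log2 scale. All differences below are on the log2(level + 1) scale from limma, with the standard error and the Benjamini-Hochberg adjusted p over the 16275 genes with a mean level of at least 10. Where a group is listed at 0 the fitted difference depends on the added 1, and levels are given in place of a fold.

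Every cocktail moved a large common set of genes. Against the fibroblasts, 5971 genes rose and 4777 fell over the 8 line libraries (limma, adjusted p under 0.05), 66% of those tested. For the separate groups the shares were 61.7% in BKF, 62.9% in KMF, 60.5% in 4F at passage 8 and 60.3% at passage 18. These 4 comparisons share the same 2 fibroblast libraries, so an error in those libraries enters all of them. Without regard to size or test, the 8 line libraries lay wholly above or wholly below the 2 fibroblast libraries for 8948 genes, 55%.

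A gene was called changed alike when it passed the test with at least a 2-fold difference in the same direction in all 4 line groups and the 4 group differences lay within 2-fold of each other. This held for 2300 genes, 14.1% of those tested, of which 1240 (7.62%) rose and 1060 (6.51%) fell. A further 1904 genes, 11.7%, passed in all 4 groups in 1 direction but by amounts more than 2-fold apart. At the boundary, the 4 differences of Nectin3 spanned 0.99966 and those of Trim25 spanned 1.00000.

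Mlc1 (ENSMUSG00000035805, chromosome 15, 88955884 to 88979007, GRCm38), which encodes a membrane protein of astrocyte end-feet, showed the largest such rise among genes with a mean level of at least 100 that were not listed at 0 in both fibroblast libraries. Its levels were 1 and 0 in the fibroblasts, 3772 and 4128 in BKF, 4414 and 4356 in KMF, 3527 and 3772 in 4F at passage 8, and 5028 and 5604 at passage 18. All 8 line libraries thus lay far above both fibroblast libraries and within 1 doubling of each other, with a difference of 11.56 ± 0.31 (SE; limma adjusted p = 5.86e-15). Bcan, which encodes the brain proteoglycan brevican, stood at 12 and 13 in the fibroblasts and between 17984 and 24590 in the lines (10.62 ± 0.28). Pou3f3, a POU transcription factor of neural progenitors, stood at 0 and 7 in the fibroblasts, and its 8 line levels ran from 2943 to 5028 with a median of 3510.5. The other genes of this kind named by the same rule were Rtn1, Agap2, Ctnnd2, Nwd1 and Myh14.

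Genes listed at 0 in both fibroblast libraries also reached high levels in the lines. Olig1, a bHLH factor of the oligodendrocyte lineage (chromosome 16, 91269772 to 91271933), was listed at 42162 in all 8 line libraries, which places it at the same rank in each. Gpm6a, a neuronal membrane glycoprotein, was listed at 10893 to 13046. Sox3, a SOXB1 factor of neural progenitors, ran from 3734 to 5432, and Rfx4, a regulator of neural tube patterning, from 4928 to 7992. Sall3, a zinc finger factor, ran from 4710 to 6986. In each of these genes the fibroblasts lay at 0 and the lowest line library lay above 3000.

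The common losses included genes of the matrix, of secreted proteins and of immune sensing. Col1a1 (ENSMUSG00000001506, chromosome 11, 94936224 to 94953042), which encodes the alpha 1 chain of type I collagen, was at the top level of 92914 in both fibroblast libraries. It was at 26 and 25 in BKF, 32 and 32 in KMF, 24 and 21 in 4F at passage 8, and 22 and 30 at passage 18. The lines held to a narrow band far below the fibroblasts, a difference of -11.74 ± 0.16 (limma adjusted p = 1.29e-18) that is understated because the fibroblast level is capped. Lgals3, which encodes the secreted lectin galectin-3, went from 6576 in both fibroblast libraries to 0 or 1 in every line library. Loxl1, a collagen and elastin cross-linking enzyme, went from 7802 and 7994 to between 0 and 4, and Col6a3 from 7798 and 7992 to between 3 and 9. Ifi204, an interferon-inducible DNA sensor, went from 2130 and 2178 to 1 or 2.

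Among genes that reached 0 in all 8 line libraries, Il1rl1, the receptor for interleukin-33, had the highest fibroblast level, 42158 in both libraries. Ltbp2, a protein of elastic microfibrils, was at 11652 in both. Grem1, a secreted BMP antagonist, was at 8657 and 8417, and Thbs4, a matricellular thrombospondin, at 7992 and 7798. Ly6a, the stem cell antigen Sca-1, was at 7153 and 7516, and Wisp2 at 8896 and 8658. These 6 genes were lost below detection in lines from all 3 cocktails.

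**Figure D1:**
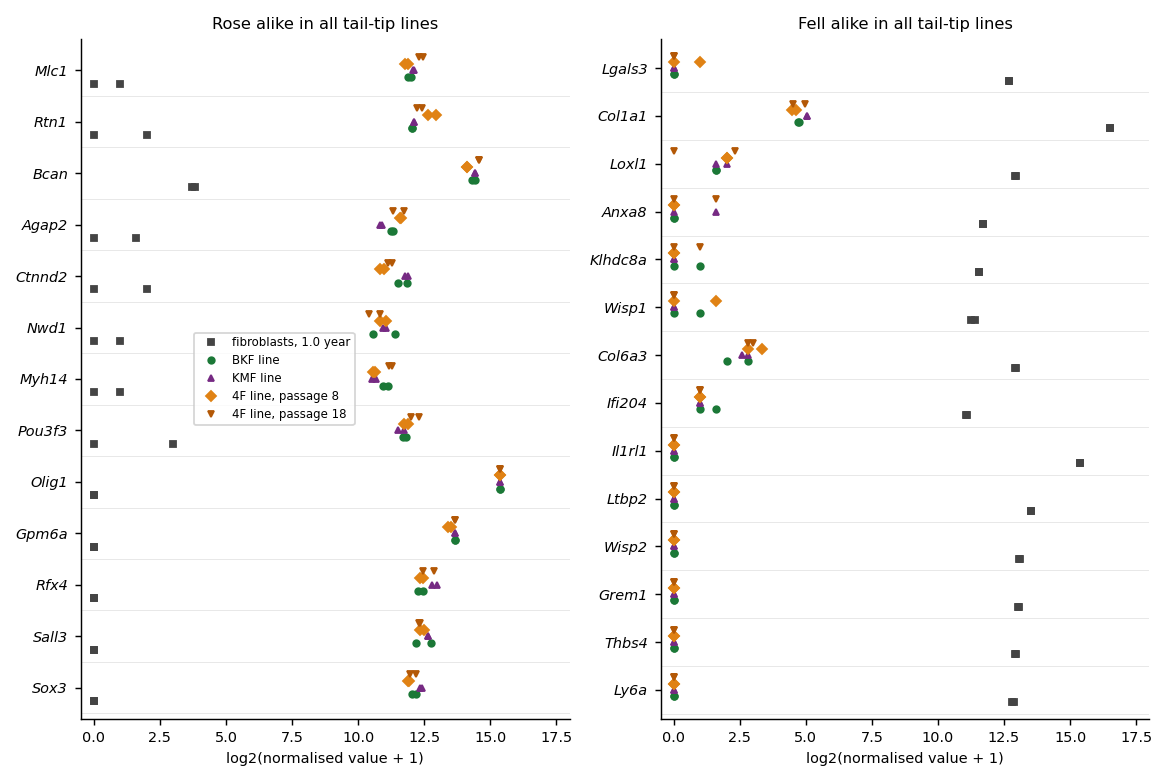
Normalised level of each gene (horizontal axis, log2 of level + 1) for the named genes that rose alike (left) or fell alike (right), 1 symbol per library in the fibroblasts, BKF, KMF and 4F at both passages. The 8 line libraries of each gene cluster together, and both fibroblast libraries lie apart: Mlc1 is at 1 and 0 in the fibroblasts and between 3527 and 5604 in the lines, and Col1a1 is at 92914 in the fibroblasts and between 21 and 32 in the lines.

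Gene lists assembled from textbook markers described the exchange by function. Over all tested genes 36.7% rose and 29.4% fell, and the median difference of the lines from the fibroblasts was 0.10. List members were named by the smallest adjusted p. Vim, Id4, Msi1, Thy1, Mfap4, Fbln1, Col5a2, Tgfbr1, Zeb1, Ccl2, Ifit2, Ptbp1, Ptbp2, Smarcd2, Stmn2, Mbp, Hes1, Hes5, Hey1, Tpi1, Ldha, Eno2, Mcm2, Pcna and Tnc were instead chosen after their values were seen. For neural stem and progenitor genes the count was 23 rises and 1 fall among 30, with a median of 4.71, and 13 of the 30 rose alike. Sox2, a SOXB1 factor that maintains neural progenitors, was listed at 0 in both fibroblast libraries. It was at 2265 and 2745 in BKF, 2854 and 2504 in KMF, 1091 and 1157 in 4F at passage 8, and 2624 and 2236 at passage 18, so the passage 8 libraries were the lowest of the lines. Pax6, a paired-box factor of cortical and spinal progenitors, went from 0 to between 420 and 934. Msi1, an RNA-binding protein of neural stem cells, rose by 5.16 ± 0.07, and Ptprz1, a receptor phosphatase of radial glia, by 4.96 ± 0.05 (limma adjusted p = 8.97e-19 and 4.34e-20). The 1 fall was Id4, an inhibitor of bHLH factors, from 977 and 956 to between 402 and 584. Vim, the intermediate filament vimentin found in both cell types, was at 32713 in both fibroblast libraries and between 21805 and 42158 in the lines, and did not pass (0.04 ± 0.29, limma adjusted p = 0.929).

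Fibroblast identity genes moved the other way: of 30, 28 fell and 1 rose, with a median of -7.40. Of the 30, 6 fell alike across groups and 19 changed by unequal amounts, the rise included. Thy1, a surface antigen used to sort fibroblasts, went from 6166 and 6318 to between 2 and 24, and Pdgfrb, the platelet-derived growth factor receptor of mesenchymal cells, from 4710 in both libraries to 0 in all 8. The 1 rise was Mfap4, a microfibril protein, from 1 and 2 to between 10 and 802, with the highest levels at passage 18. Fbln1, a matrix fibulin, did not pass: it was at 1698 in both fibroblast libraries and between 564 and 2010 in the lines, so the groups overlapped. Col5a2, a minor chain of collagen V fibrils, was listed at 42162 in both fibroblast libraries. It was at 0 in both BKF libraries and at 16 and 0 in KMF, but at 706 and 768 in 4F at passage 8 and at 1030 and 1110 at passage 18.

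Contractile and signalling genes of fibroblasts fell with them. All 13 smooth muscle contractile genes fell (median -5.23), among them Tagln, an actin-binding protein, from 13046 in both fibroblast libraries to between 16 and 40. Of 22 genes of the TGF-beta and BMP pathways, 16 fell and 2 rose (median -4.69). Among the ligands, Inhba, which encodes activin A, went from 17981 in both libraries to between 24 and 59. Among the receptors, Tgfbr3 fell alike in all groups (from 3528 and 3428 to between 28 and 44), while Tgfbr1, at 956 and 938 in the fibroblasts and 601 to 1282 in the lines, did not pass. Of 21 mesenchymal transcription factors, 18 fell and 2 rose (median -3.53). Zeb1, known for driving mesenchymal transition and also made by neural progenitors, was one of the rises, from 2835 and 2744 to between 9950 and 12124.

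Most listed immune genes fell. All 14 tested genes for secreted or receptor proteins of inflammation fell (median -7.47), with Ccl2, a monocyte chemokine, going from 8417 and 8657 to between 32 and 530. Of 12 genes for class I antigen presentation, 11 fell (median -2.28). B2m, the class I light chain, went from 6466 and 6859 to between 1096 and 2118, and H2-D1, a class I heavy chain, from 1733 and 1636 to between 32 and 76. Of 14 interferon-response genes, 13 fell (median -2.68). Ifit2, at 398 and 411 in the fibroblasts and 168 to 215 in the lines, did not pass. Macrophage marker levels moved in the same direction: their sum over the list was 352 to 357 in the fibroblasts and 13 to 113 in the lines, with 4 of 5 tested members lower, none higher, and Adgre1 at 0 in all 8 line libraries. Ptprc, the pan-leukocyte antigen CD45, was at 199 and 188 in the fibroblasts and at 0 in 7 line libraries, with 96 in KMF replicate 2. The part of other cell types in these immune falls was not tested.

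Genes for chromatin and neuronal splicing also moved. Of 10 DNA methylation genes, 9 rose and 1 fell (median 1.95). Dnmt3a, a de novo DNA methyltransferase, went from 96 and 90 to between 1692 and 2336. Of 19 genes for the progenitor BAF complex and its Polycomb opponents, 16 rose and 2 fell (median 0.96). Smarcd1, a BAF subunit, rose by 2.46 ± 0.08, whereas its paralogue Smarcd2 fell by 2.11 ± 0.26 (limma adjusted p = 1.32e-13 and 1.8e-06). Of 13 splicing regulators, 8 rose and 4 fell. Ptbp2, the neuronal polypyrimidine tract binding protein, was at 744 and 709 in the fibroblasts and between 1781 and 2504 in the lines. Its non-neuronal paralogue Ptbp1 did not pass over all lines (0.23 ± 0.19, limma adjusted p = 0.321).

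**Figure D2:**
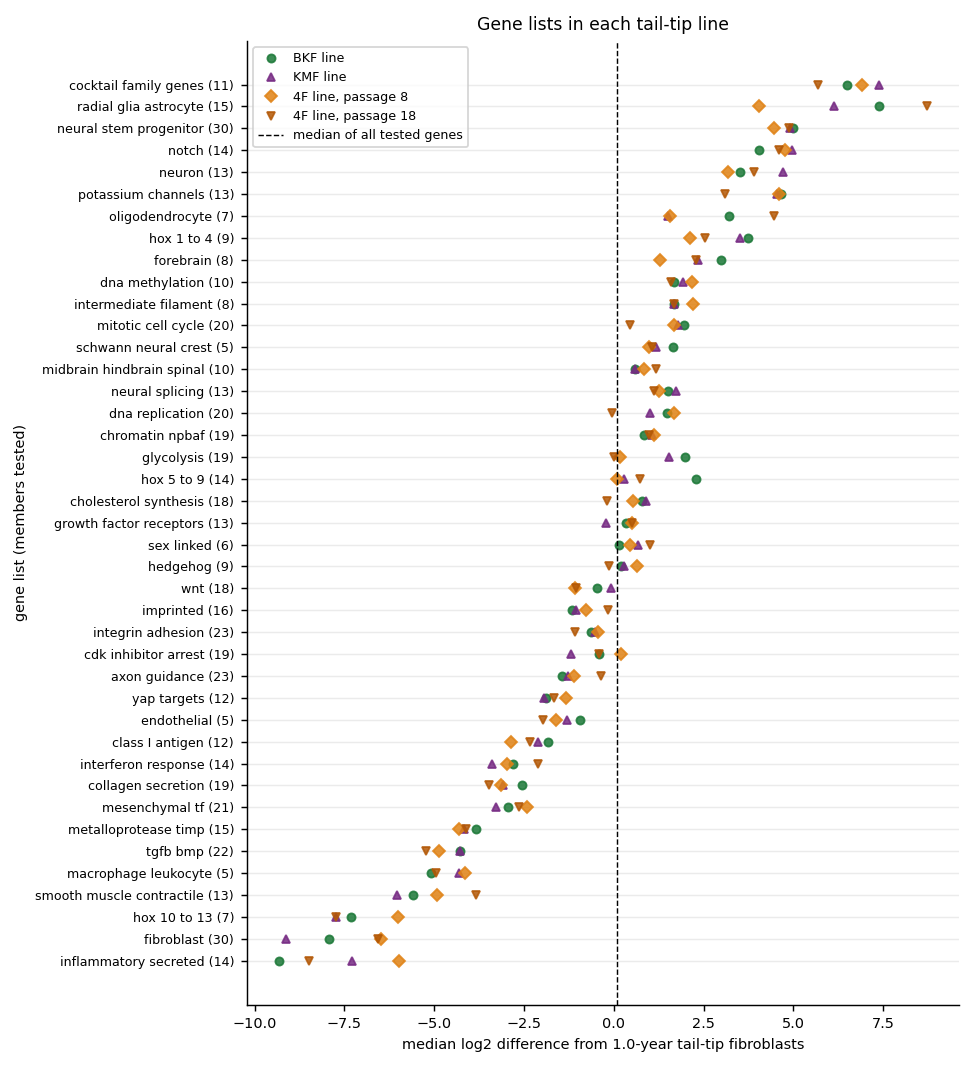
Median log2 difference from the fibroblasts (horizontal axis) of each gene list with at least 5 tested members, 1 symbol per line group, the dashed line marking the median of all tested genes. The 4 line groups lie close together for neural stem genes (5.0, 4.9, 4.47 and 4.89 for BKF, KMF, passage 8 and passage 18) and spread apart for astrocyte genes and glycolysis.

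Neural lineage genes rose in every group but by unequal amounts. Of 15 radial glia and astrocyte genes, 13 rose and 2 fell (median 6.72), and 11 of the 15 changed unequally against 3 that rose alike. The median in 4F was 4.05 at passage 8 and 8.72 at passage 18. Gfap, the astrocyte intermediate filament, was listed at 0 in the fibroblasts, at 154 and 180 in BKF, 37 and 32 in KMF, 20 and 12 at passage 8, and 628 and 2547 at passage 18. The passage 18 libraries were the highest of the lines and differed from passage 8 by 6.26 (limma adjusted p = 6.87e-08). Aqp4, the astrocyte water channel, differed between the passages by 5.02 in the same direction. Hepacam, an adhesion protein that partners the Mlc1 protein, had another order: 3952 and 3608 in BKF, 4355 and 4710 in KMF, but 111 and 160 at passage 8 and 663 and 862 at passage 18.

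Of 13 neuronal genes, 12 rose and 1 fell (median 4.20). Map2, a dendritic microtubule protein, went from 280 and 236 to between 15161 and 28063. Stmn2, a neuronal microtubule regulator, was the fall, from 293 and 268 to between 0 and 28. Of the 12 listed oligodendrocyte genes, 9 were in the table and 7 were tested, of which 5 rose and 2 fell. Mbp, the major myelin protein, was not tested because its level was 20 or less in each of the 10 libraries. Nanog and 2 other pluripotency genes of 12 listed were in the table. Nanog was at 11 and 18 in the fibroblasts and between 50 and 94 in the lines, and did not pass (2.35 ± 1.02, limma adjusted p = 0.054). Esrrb, an orphan nuclear receptor of pluripotent cells, was the other one tested and rose over the lines together (limma adjusted p = 3.51e-08). It was listed at 0 in the fibroblasts and at passage 18, at 8 in both BKF libraries, 5 in both KMF libraries, and 19 and 14 at passage 8.

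Notch pathway genes rose in 10 of 14 cases and fell in 1 (median 4.64). Of the ligands, Dll1 went from 5 and 4 to between 1554 and 4471, and Dll3, a ligand that acts within the producing cell, from 1 and 0 to between 426 and 1499. Of the receptors, Notch1 went from 427 and 574 to between 4990 and 13046. Of the targets, Hey1 went from 8 and 5 to between 267 and 2488. Hes5, the target most tied to neural stem cells, was at 0 in the fibroblasts and at 356 to 1438 in BKF and KMF. In 4F at passage 8 the 2 Hes5 libraries disagreed, at 35 and 7802, so no order between the cocktails can be read from it. Hes1, another target, did not pass and was also uneven at passage 8, at 314 and 3048.

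Hox genes, which record position along the body axis, moved in both directions, with a balance that differed by paralogue group. Of 7 tested genes of groups 10 to 13, none rose and 6 fell (median -7.03). Hoxc12 went from 609 and 564, and Hoxc13 from 535 and 521, to 0 in all 8 line libraries, and Hoxb13 from 1346 and 1378 to between 0 and 10. Hox genes of these high-numbered groups are known for expression at the caudal end of the body. Of 9 tested genes of groups 1 to 4, 8 rose and 1 fell (median 3.21). The fall was Hoxc4 (-2.37). Hoxb3 went from 79 and 54 to between 258 and 1480, with KMF the highest at 1480 and 1392 and 4F at passage 8 the lowest at 326 and 258. Groups 5 to 9 were mixed, with 7 higher and 5 lower of 14 (median 0.87). The falls included Hoxc5 (-2.62), Hoxc6, Hoxc9 and Hoxb9 (-3.09). HoxC genes thus fell also outside groups 10 to 13. Hoxb8 went from 36 and 42 to between 622 and 3303. Hoxa10 was the member of groups 10 to 13 that did not pass over all lines: it was at 220 and 254 in the fibroblasts, 24 and 17 in BKF and 4 and 4 in KMF, but 1626 and 1160 in 4F at passage 8 and 1239 and 1030 at passage 18.

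Imprinted genes moved in both directions, 7 higher and 8 lower of 16 (median -0.65), where 36.7% of all tested genes rose and 29.4% fell. Meg3, a maternally expressed long non-coding RNA, went from 3772 and 3952 to 0 in all 8 line libraries. Grb10, a growth factor receptor adaptor, went from 3068 and 2877 to between 36 and 78. Mest went from 46 and 76 to between 9708 and 32716, and Peg3, a zinc finger gene, from 99 and 104 to between 3442 and 8894, both being paternally expressed genes. Nnat, paternally expressed in the brain, was high in KMF, at 1239 and 1270, against 38 and 34 in BKF and 5 to 9 in 4F. Its BKF minus KMF difference was -5.09 (limma adjusted p = 2.06e-09).

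Genes that a single cocktail changed were few once the differences between cocktails were tested. Counting only which cocktail passed against the fibroblasts by at least 2-fold gave 583 genes for BKF, 840 for KMF and 174 for 4F. Here 4F counted as passing only where both passages passed in the same direction. The BKF and KMF counts can therefore include genes that passed at a single 4F passage, and the 4F count is the stricter. Requiring also that the cocktail differ at least 2-fold from each of the others (limma adjusted p under 0.05), and that the others neither pass nor reach 2-fold against the fibroblasts left 13 genes for BKF (0.0799% of those tested), 19 for KMF (0.117%) and 18 for 4F (0.111%). The labels give no passage for the BKF and KMF lines, so cocktail and passage cannot be told apart. Between cocktails, 674 genes differed at least 2-fold between BKF and KMF (4.14%), 1026 between 4F and BKF (6.3%) and 1329 between 4F and KMF (8.17%). Without the 2-fold limit the counts were 2110, 3460 and 4339 in the same order. By that measure the 2 passages of the 4F line differed in 5716 genes, more than any pair of cocktails. These counts rest on 2 libraries per group. Without BKF replicate 1 the BKF count was 40, without either KMF library it was 8, and the KMF count was 11 without BKF replicate 2 and 30 without KMF replicate 1.

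BKF alone raised 7 genes and lowered 6. The 13 include genes at very low levels, such as Gata4, an endoderm and heart factor, at 3 and 4 in BKF and 0 in the other 8. Gapdh, a glycolytic enzyme often used as a reference gene (chromosome 6, 125161715 to 125166467), was at 21805 in both fibroblast libraries and at the top level of 92914 in both BKF libraries. It was at 32713 and 28060 in KMF, 17981 and 24587 in 4F at passage 8, and 28060 and 21805 at passage 18. The BKF level is capped and lay above all other libraries of the set. Its difference from KMF was 1.62 ± 0.47 (limma adjusted p = 0.0339) and did not pass when any library of BKF or KMF was left out (adjusted p 0.0791 to 0.17). The ear 4F lines were also at 92914, so the level is not particular to BKF in the series. Of the other BKF rises named, Ndufaf3, an assembly factor of respiratory complex I, kept its call without each library, but Mars (methionyl-tRNA synthetase), Hoxb7 and Higd1a, a hypoxia-inducible mitochondrial protein, each lost theirs without BKF replicate 2 (limma adjusted p = 0.0737, 0.159 and 0.449) and when only the 10 libraries were fitted (0.086, 0.0823 and 0.224). Hoxb7 also lost its call without either KMF library (0.0675 and 0.068), as did Higd1a (0.11 and 0.241), which lost it without either fibroblast library too (0.0559 and 0.0558).

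The BKF losses included 2 neighbouring zinc finger genes. Zfp982 (chromosome 4, 147492417 to 147513486) was at 819 and 743 in the fibroblasts, 0 in both BKF libraries, 418 and 477 in KMF, and 475 to 596 in 4F. Zfp985 (147553277 to 147585198) was at 164 and 178 in the fibroblasts, 0 in both BKF libraries and 80 to 215 in the other lines. In both genes only the BKF libraries of this set were at 0. The next gene, Zfp979 (147611937 to 147642513), had group means of 993 in the fibroblasts, 889 in BKF, 849 in KMF, 948.5 at passage 8 and 911 at passage 18. In the ear 4F lines Zfp982 was at 0 and 476 and Zfp985 at 0 in both. These genes have close paralogues nearby, so reads may be split among copies, and the Zfp985 call was lost without BKF replicate 2 (limma adjusted p = 0.104) or either KMF library (0.098 and 0.0888). Zkscan7, another zinc finger gene, fell from 222 and 188 to 56 and 65 in BKF and was at 169 to 232 in the other lines.

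KMF alone raised 6 genes and lowered 13. Scd1, a fatty acid desaturase, was at 4304 in both fibroblast libraries, 12122 in both KMF libraries, 7153 and 4756 in BKF, and 2547 to 5088 in 4F. Mmp16, a membrane-type matrix metalloprotease, was at 200 and 176 in the fibroblasts and at 530 and 458 in KMF. For Scd1 and Mmp16 both KMF libraries lay above the other 8 libraries, but the difference from BKF was lost without BKF replicate 2 (limma adjusted p = 0.323 and 0.0893) or KMF replicate 1 (0.14 and 0.0573). That of Scd1 was also lost without KMF replicate 2 (0.142) and when only the 10 libraries were fitted (0.0575). Olfr726, an olfactory receptor gene, was at 94 and 115 in KMF and at 0 in the other 8.

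Among the KMF losses, Slc5a8, a sodium-coupled monocarboxylate transporter, was at 655 and 510 in the fibroblasts, 0 in both KMF libraries and 358 to 558 in the other lines. Gucy1b1, a subunit of the nitric oxide receptor guanylate cyclase, was at 130 and 118 in the fibroblasts, 0 in both KMF libraries and 120 to 174 in the others. Both genes were thus at 0 only in KMF within this set, although the difference of Slc5a8 from BKF was lost without BKF replicate 2 (limma adjusted p = 0.074) or either KMF library (0.0762 and 0.0766). Eid2, an inhibitor of differentiation factors, went from 230 and 245 to 112 and 92. Sumf2, at 100 and 64 in KMF and 292 and 319 in the fibroblasts, lost its difference from BKF without BKF replicate 2 (limma adjusted p = 0.154) or KMF replicate 2 (0.132). Baiap2, an actin regulator of synapses, went from 636 and 663 to 264 and 312.

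4F alone raised 7 genes and lowered 11. The falls included genes for glucose use and for the response to low oxygen. Slc2a1, the glucose transporter GLUT1, was at 1594 and 1625 in the fibroblasts, 2432 and 2445 in BKF, 2010 and 1994 in KMF, 472 and 605 in 4F at passage 8, and 326 and 156 at passage 18. Hk2, hexokinase 2, which phosphorylates the glucose taken up, was at 1354 and 1362 in the fibroblasts, 1586 and 1671 in BKF, 1256 and 1308 in KMF, 416 and 418 at passage 8, and 192 and 88 at passage 18. For both genes the 4 libraries of 4F lay below the other 6. Against the fibroblasts Slc2a1 fell by 1.59 ± 0.25 at passage 8 and by 2.83 ± 0.25 at passage 18, and Hk2 by 1.70 ± 0.53 and 3.37 ± 0.53 (limma adjusted p = 4.12e-05, 5.12e-08, 0.0104 and 3.22e-05).

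Epas1, which encodes the hypoxia-inducible factor HIF-2 alpha, was at 200 and 189 in the fibroblasts, 198 to 262 in BKF and KMF, 59 and 52 at passage 8, and 45 and 42 at passage 18. P4ha1, a collagen prolyl hydroxylase and a known hypoxia target, was at 4930 and 4990 in the fibroblasts, 4078 to 4930 in BKF and KMF, 1026 and 1499 at passage 8, and 1282 and 984 at passage 18. The 4F libraries again lay below all others of the set. Mecom and Triobp were the other named falls. Col26a1, a collagen gene, led the rises, at 268 and 308 at passage 8, 138 and 179 at passage 18 and 0 in the other 6. Akr1c13, an aldo-keto reductase, was at 268 to 396 in 4F and at 99 to 120 in the other 6.

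The ear 4F lines of the series held other levels of these genes: 3552 and 3552 for Slc2a1, 2336 and 2469 for Hk2, 136 and 138 for Epas1, and 4170 and 4077 for P4ha1. For Slc2a1 and Hk2 the ear lines lay above the tail-tip fibroblasts, for P4ha1 they lay at the lower end of the BKF and KMF levels, and for Epas1 they lay below all 6 fibroblast, BKF and KMF libraries and above the 4 of tail-tip 4F. The other named 4F genes are given as means. Col26a1 and Akr1c13 were at 0 and 101 in the ear lines, as against 288 and 282 at tail-tip passage 8. Mecom and Triobp were at 344 and 1583 in the ear lines, above the tail-tip fibroblasts (160 and 888.5). Fahd2a, at 31, lay between the fibroblasts (9) and passage 8 (49.5). The ear lines were not tested against the tail-tip cells. Ear fibroblasts of the same age were not compared with these lines here. The same 4F factors were thus accompanied by different levels of these genes in 2 sources, and source and picked colony cannot be told apart.

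**Figure D3:**
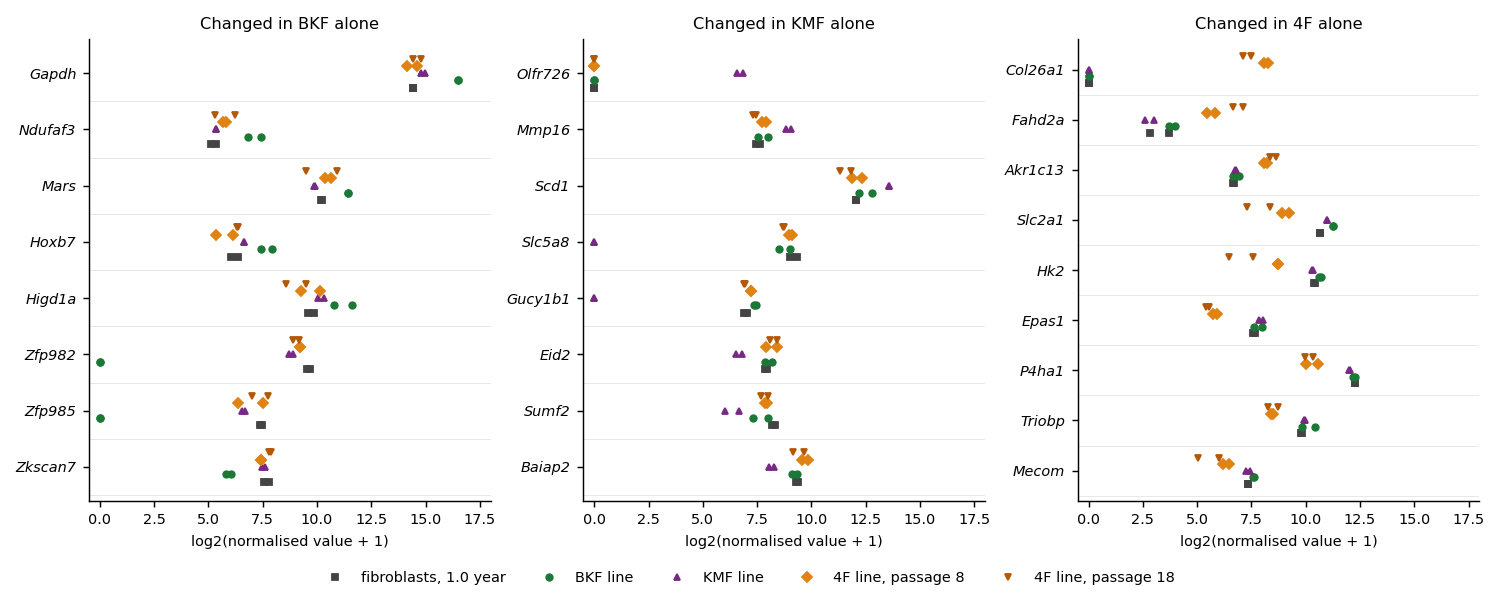
Normalised level (horizontal axis, log2 of level + 1) of the named genes changed under BKF, KMF or 4F alone, 1 panel per cocktail and 1 symbol per library in the fibroblasts and the 4 line groups. Slc2a1 is at 156 to 605 in the 4 libraries of 4F and at 1594 to 2445 in the other 6, and Zfp982 is at 0 in BKF alone.

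The glycolysis list placed these genes in their pathway. Of 19 genes, 11 rose and 5 fell in the lines together (median 0.88). In BKF 14 rose and 2 fell (median 1.97), where 34.4% of all tested genes rose and 27.3% fell. In KMF 12 rose and 2 fell (1.55), against 34.1% and 28.8% of all. In 4F 7 rose and 5 fell at passage 8 (0.16), against 34.3% and 26.2% of all, and at passage 18 the counts were 6 and 5 (0.00), against 32.9% and 27.4%. In direct tests, 14 of the 19 were lower in 4F than in BKF and none higher, where 10.2% of all tested genes were lower and 11% higher. Against KMF 14 were lower and 2 higher, where 12.7% of all were lower and 13.9% higher. The genes lower than BKF include Slc2a1, Hk2 and Gapdh, whose classes already required that difference. The classes of Slc2a1 and Hk2 required it from KMF as well. Summed levels over the list were 98251 to 98743 in the fibroblasts, 425709 to 437080 in BKF, 327528 to 333361 in KMF, 107096 to 154942 at passage 8 and 118015 to 165419 at passage 18. BKF and KMF thus lay above 4F, and 4F reached closer to the fibroblasts.

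Individual enzymes followed this order in part. Tpi1, triosephosphate isomerase, was at 3527 and 3442 in the fibroblasts, 17981 in both BKF libraries, 10338 and 9950 in KMF, 2191 and 4127 at passage 8, and 4170 and 2327 at passage 18. Ldha, lactate dehydrogenase A, was at 9150 in both fibroblast libraries, 32716 in both BKF libraries, 28063 in both KMF libraries, and 4242 to 13046 in 4F. In both genes 4F overlapped the fibroblasts and BKF and KMF did not. Aldoc, the brain aldolase, rose in every group, from 10 and 7 to between 3924 and 9706. Pfkp and Eno2, isoforms of phosphofructokinase and enolase, fell alike in every group, Pfkp from 552 and 538 to between 42 and 93.

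**Figure D4:**
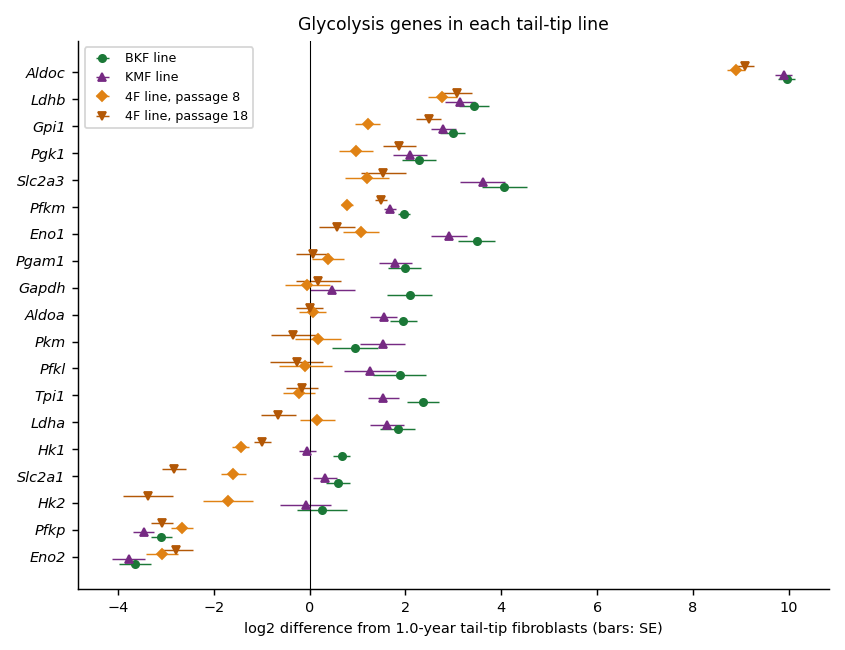
Log2 difference from the tail-tip fibroblasts (horizontal axis) of each glycolysis gene in BKF, KMF and 4F at both passages, with bars for the standard error from limma. BKF and KMF lie above 4F for most genes, and Slc2a1 and Hk2 are lowest in 4F (-1.59 and -1.70 at passage 8, -2.83 and -3.37 at passage 18).

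The promoters of 3 of the 4F falls and of Gapdh are shown because these genes of sugar use and collagen hydroxylation lay apart by cocktail in the same lines. Sequences are from RefSeq (GRCm38.p6), run 5′ to 3′ on the gene's strand from 250 bases before to 50 bases after the annotated start, and capitals mark the motif ACGTG or its reverse complement CACGT, the core of the hypoxia response element. Of 66 named genes of these classes, 45 had a promoter in the table. The positions are chr4:119108495-119108794 (+) for Slc2a1, chr6:82774405-82774704 (-) for Hk2, chr10:59323046-59323345 (+) for P4ha1 and chr6:125165724-125166023 (-) for Gapdh. The Gapdh window lies wholly inside the gene span given above, which comes from GENCODE, so the annotations differ in its start.
Slc2a1: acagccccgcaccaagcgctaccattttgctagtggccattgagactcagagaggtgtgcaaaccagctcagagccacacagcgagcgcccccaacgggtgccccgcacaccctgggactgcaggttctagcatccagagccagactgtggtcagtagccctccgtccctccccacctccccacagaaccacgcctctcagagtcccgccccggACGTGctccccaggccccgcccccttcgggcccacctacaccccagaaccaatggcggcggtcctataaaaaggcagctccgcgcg
Hk2: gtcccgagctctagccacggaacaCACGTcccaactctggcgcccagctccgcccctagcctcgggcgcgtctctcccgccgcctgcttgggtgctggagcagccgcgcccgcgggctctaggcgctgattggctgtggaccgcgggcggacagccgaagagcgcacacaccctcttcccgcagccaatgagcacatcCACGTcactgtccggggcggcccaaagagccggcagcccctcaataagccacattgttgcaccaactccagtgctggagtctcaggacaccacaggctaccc
P4ha1: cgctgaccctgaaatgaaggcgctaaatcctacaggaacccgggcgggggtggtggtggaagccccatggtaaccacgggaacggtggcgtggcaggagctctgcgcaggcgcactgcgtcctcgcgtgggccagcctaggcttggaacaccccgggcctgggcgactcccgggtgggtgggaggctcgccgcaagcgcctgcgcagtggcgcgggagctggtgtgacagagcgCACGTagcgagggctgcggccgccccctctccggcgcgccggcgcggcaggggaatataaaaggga
Gapdh: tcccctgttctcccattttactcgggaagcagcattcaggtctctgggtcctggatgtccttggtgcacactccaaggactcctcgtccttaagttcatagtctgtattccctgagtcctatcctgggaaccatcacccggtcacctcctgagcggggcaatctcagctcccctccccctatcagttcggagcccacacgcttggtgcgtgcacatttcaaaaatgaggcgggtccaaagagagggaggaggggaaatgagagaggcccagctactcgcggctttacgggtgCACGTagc
Hk2 held 2 matches and each of the others 1. The motif, searched on both strands, was present in 19.6% of the 32851 promoters of this length. The 4 promoters shown were picked from the 45, and matches in the others are not given. Their matches therefore cannot be set against this share. A match describes the letters and was not tested as a site.

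26 genes, 0.16% of those tested, rose under 1 cocktail and fell under another, each by at least 2-fold (limma adjusted p under 0.05), and 17 did so without fibroblast replicate 1. Repin1, a zinc finger protein named for replication initiation (chromosome 6, 48593883 to 48599082), showed the widest gap. It was at 182 and 211 in the fibroblasts, 2191 and 2190 in BKF, 1526 and 1620 in KMF, 3 and 0 in 4F at passage 8, and 0 in both libraries at passage 18. Its downstream neighbour Zfp775 (48602063 to 48623227) was at 13 and 9 in the fibroblasts, 180 and 210 in BKF, 184 and 196 in KMF, and 0 in all 4 libraries of 4F. The 2 genes thus rose together in 2 cocktails and were near 0 together in the third.

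Other genes within 100 kb differed in their levels. Upstream, Atp6v0e2, a proton pump subunit, had means of 36 in the fibroblasts, 2062 in BKF, 1901 in KMF, 1389 at passage 8 and 1894 at passage 18. Between Atp6v0e2 and Repin1, Lrrc61 had means of 46.5, 43, 264.5, 101 and 336 in the same order, and Rarres2, a secreted chemoattractant, was low throughout, at 24.5, 8.5, 14, 2.5 and 10.5, with passage 8 the lowest. Downstream, Gimap8 had means of 71, 192, 187, 117 and 177. Gimap9 went from 102.5 to 31 in BKF and to 0 in KMF and at both passages of 4F, and Gimap4 from 27 to 0 in every line group. The ear 4F lines were at 1862 and 1959 for Repin1 and at 170 and 206 for Zfp775, close to the 2.5-year neural stem cells (2150 and 2304 for Repin1). The zero levels were therefore seen in the tail-tip 4F line and not in the ear 4F lines, at both passages of what the labels name as the same line.

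Other opposed genes marked position and matrix. Hoxa9 was at 52 and 54 in the fibroblasts, 5 and 3 in BKF, 0 in both KMF libraries, and 680 to 1358 in 4F, with 4F above and BKF and KMF below the fibroblasts, as for its neighbour Hoxa10. Fndc1, a fibronectin-domain protein, was at 624 and 644 in the fibroblasts, 71 and 30 in BKF, 0 and 1 in KMF, and 1210 to 1807 in 4F. Vax2, a homeobox gene of the ventral eye and forebrain, went the other way, at 30 and 18 in the fibroblasts, 74 to 144 in BKF and KMF, and 0 to 3 in 4F. For Hoxa9, Fndc1 and Vax2 the 4F line was the one that stood apart.

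KMF stood apart in other cases. Cspg4, the NG2 proteoglycan of oligodendrocyte precursors and pericytes, was at 248 and 260 in the fibroblasts, 956 and 581 in BKF, 6 and 5 in KMF, and 104 to 747 in 4F. Mid1ip1, a regulator of fatty acid synthesis, was at 418 and 461 in the fibroblasts, 54 and 40 in KMF and 1294 to 2899 in the other lines. Nap1l5, an imprinted gene, was at 103 and 124 in the fibroblasts, 0 and 40 in KMF, 238 in both BKF libraries and 934 to 1198 in 4F. Matn4, a matrilin, was at 265 and 307 in KMF and at 1 to 23 in the other 8. Xlr passed the rule but its fibroblast libraries disagreed, at 0 and 361, so its direction against them cannot be read, and its BKF minus KMF difference did not pass when only the 10 libraries were fitted (limma adjusted p = 0.0773). Ero1l, an oxidase of the endoplasmic reticulum that is induced by low oxygen, was chosen after its values were seen: it was at 2372 and 2054 in the fibroblasts, 9430 and 8417 in BKF, 3442 and 3733 in KMF, and 834 to 1434 in 4F.

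Lines made with BKF and KMF from embryonic fibroblasts gave a check on separate libraries. Of the 13 BKF genes, none differed between the embryonic BKF and KMF lines in the tail-tip direction with limma adjusted p under 0.05, and 3 differed in the opposite direction (Slc2a12, Gata4 and Zkscan7). At an unadjusted p under 0.05 the counts were 1 and 4. Of the 19 KMF genes, 1 did so in the same direction and 2 in the opposite direction (Baiap2 and D130079A08Rik). The 1 was Cd200, an immune checkpoint ligand, at 76 in both tail-tip fibroblast libraries, 38 and 49 in BKF and 0 in both KMF libraries. Its BKF minus KMF difference was 5.46 in the tail-tip lines and 4.44 ± 0.57 in the embryonic lines, with 50 and 45 in embryonic BKF and 0 and 4 in embryonic KMF. The ear 4F lines were also at 0 for Cd200.

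Over all 674 genes that separated tail-tip BKF from KMF at least 2-fold, 102 (15.1%) differed in the same direction in the embryonic lines, 77 (11.4%) in the opposite direction and 495 were not called. The share called between the embryonic lines over all tested genes, in either direction, was 10.3%. Its like figure for the 674 genes is the sum of 15.1% and 11.4%, which lay above it, and not each share alone. That sum does not concern direction. With or without a call, 324 of the 674 shared the tail-tip sign, and the median difference in the tail-tip direction was 0.00. Of genes higher in tail-tip BKF, 62 were called in the same direction and 37 in the opposite one. Of those higher in KMF the counts were 40 and 40. The same-direction count was 65 without embryonic KMF replicate 1, and the opposite count 50 without embryonic KMF replicate 2. Embryonic and tail-tip lines differ in age, source and picked colony as well, and these cannot be told apart.

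**Figure D5:**
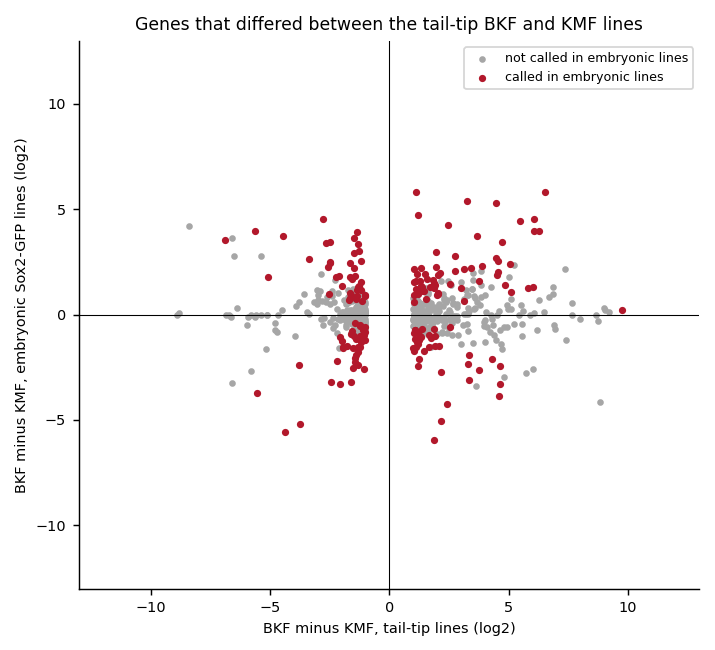
BKF minus KMF difference on the log2 scale in the tail-tip lines (horizontal axis) against the embryonic lines (vertical axis), 1 point per gene for the 674 genes at least 2-fold apart in the tail-tip lines. Called genes (red) lie in all 4 quadrants: 102 share a direction and 77 have opposite directions, and genes not called are grey.

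Expression of the factor families was read in the same libraries. Sox17, whose engineered form was in every cocktail, was at 0 and 1 in the fibroblasts, 384 and 254 in BKF, 62 and 29 in KMF, and 0 in all 4 libraries of 4F. Lentiviral and endogenous transcripts cannot be told apart in these values. Klf4, a Kruppel-like factor of skin and pluripotency, fell alike in all groups, from 1304 and 1157 to between 136 and 568. Pou3f2, a POU factor of neural progenitors, went from 0 to between 542 and 1526. Myc was at 544 and 546 in the fibroblasts, 1400 and 1282 in BKF, 466 and 531 in KMF, 3000 and 1464 at passage 8, and 490 and 1138 at passage 18. KMF lay below the fibroblasts for Myc, and the 4F libraries spread widely.

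Not all fibroblast expression was lost. With the 2.5-year neural stem cells as a reference, 235 genes (1.44% of those tested) stayed within 2-fold of the fibroblasts in the lines while both exceeded the neural stem cells at least 2-fold (limma adjusted p under 0.05 in each). The lines as a whole differed from the neural stem cells in 37.7% of genes and the fibroblasts in 60.3%. The list is led by genes of the Y chromosome. Eif2s3y was at 2191 and 2304 in the fibroblasts, 2265 to 3668 in the lines and 0 in both neural stem cell libraries, and Ddx3y at 3953 and 4040, 2150 to 2922, and 0. Xist, the RNA of the inactive X chromosome, was at 92914 and 42158 in those neural stem cells, 0 in the fibroblasts and 126 to 253 in the lines. The neural stem cell libraries thus differ from the tail-tip cells in X- and Y-linked expression as well as in labelled age and tissue. The strand of counting is not given in the sources used here, and Xist reads cannot be separated from those of its antisense partner.

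Autosomal genes among the kept set included regulators of skin and limb mesenchyme. Bmp5, a BMP ligand, was at 468 and 463 in the fibroblasts, 184 to 334 in the lines and 0 in the neural stem cells. Pax9, a paired-box gene of mesenchyme, was at 136 and 110 in the fibroblasts, 130 to 274 in the lines and 0 in the neural stem cells, so here lines and fibroblasts overlapped. Art3, an ADP-ribosyltransferase family gene, was at 70 and 86, 62 to 136, and 0. Tbx15, a T-box gene of dermis chosen after its values were seen, was at 614 and 535 in the fibroblasts, 268 to 384 in the lines, and 9 and 4 in the neural stem cells.

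The 2 passages of the 4F line differed in 5716 genes, 35.1% of those tested. All 20 DNA replication genes were lower at passage 18 (median difference -2.0), where 17.6% of all tested genes were lower. Mcm2, a subunit of the replicative helicase, was at 526 and 534 in the fibroblasts, 3254 and 2745 at passage 8, and 812 and 281 at passage 18, a difference of -2.64 between the passages (limma adjusted p = 0.00169). Pcna, the polymerase clamp, was at 8657 in both libraries of passage 8 and at 2658 and 1140 at passage 18. The passage 18 libraries differed from each other as well as from passage 8. Against the fibroblasts, 17 of the 20 rose at passage 8 and 2 at passage 18.

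Of 20 mitotic genes, 0 passed between the passages in either direction (limma), also at an unadjusted p under 0.05, although 10 rose in the lines together (median 1.5). Mki67, a proliferation antigen, was at 1079 and 1122 in the fibroblasts, 5846 and 5242 at passage 8, and 4756 and 1763 at passage 18. Summed mitotic levels at passage 18 were 13422 and 43971, against 68629 to 75587 in BKF, so 1 of the passage 18 libraries was low in cell cycle genes. Nes, the progenitor intermediate filament nestin, was at 32716 in both libraries of passage 8 and at 8658 and 8418 at passage 18, with 5952 to 7289 in BKF and KMF. Tnc, the matrix protein tenascin-C, was at the top level of 92914 in both passage 8 libraries and at 5846 and 3192 at passage 18, a difference of -4.43 (limma adjusted p = 5.69e-05). The astrocyte genes above moved the other way, with 10 of 15 higher and 1 lower at passage 18, where 17.5% of all tested genes were higher. A single line was followed, so passage and culture cannot be told apart.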

How the data were processed

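RNA-seq libraries (oligo(dT)-enriched RNA, random-hexamer cDNA) of 14 groups of 2 were deposited as 1 table of 17295 genes by 28 libraries. The values are whole numbers, treated as a normalised score: the authors deposited them already scaled, since totals differed by 0.051% and ranks carried near-equal values. The normalisation method is not given in the sources used here. RSEM, Bowtie2 2.0 and mm10 are named per the submitters' processing notes. No count model was used, since the scores are not counts. limma 3.58.1 (R 4.3.3) was fitted to log2(score + 1) of genes whose mean score over the 28 libraries reached 10, 1 term per group, with an intensity trend and Benjamini-Hochberg adjustment over all 16275 genes at 0.05, and was tested on simulated data. Figures used Python 3.11.15 and matplotlib 3.10.9. Named genes were those with the largest differences in each class (mean of at least 100) and the members of each list with the smallest adjusted p, predicted genes left out. Classes, lists and members were chosen with earlier results of these data known, and no list was tested as a set. Alternatives tried were the pseudocount, the low-value filter, quantile normalisation, the libraries fitted, fold limits, a replicate block, other controls and leaving out each library. A few genes are not reported here.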

Additional observations from a re-analysis of the deposited data

Results flagged for a closer look

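Genes that a single cocktail changed differed between cocktails by a test of the difference itself (limma adjusted p under 0.05), which is why they are listed here. The class rule required that test, so passing it is not further support. As described above, Gapdh, Mars, Hoxb7, Higd1a, Zfp985, Mmp16, Scd1, Slc5a8 and Sumf2 lost the difference when a library was left out. The BKF level of Gapdh is also capped. Each value is the smaller of the differences from the other 2 cocktails on the log2 scale. For BKF these were 1.62 for Gapdh, 1.38 for Ndufaf3, 1.07 for Mars, 1.04 for Hoxb7 and 1.01 for Higd1a among the rises, and 8.81 for Zfp982, 6.62 for Zfp985 and 1.61 for Zkscan7 among the falls. For KMF they were 6.71 for Olfr726, 1.17 for Mmp16 and 1.06 for Scd1 among the rises, and 8.76 for Slc5a8, 7.08 for Gucy1b1, 1.34 for Eid2, 1.32 for Sumf2 and 1.05 for Baiap2 among the falls. For 4F they were 7.74 for Col26a1, 2.41 for Fahd2a and 1.53 for Akr1c13 among the rises, and 2.52 for Slc2a1, 2.45 for Hk2, 2.16 for Epas1, 1.80 for P4ha1, 1.46 for Triobp and 1.43 for Mecom among the falls.

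For genes that cocktails moved in opposite directions the largest difference between cocktails was 10.60 for Repin1, 10.11 for Hoxa9, 10.02 for Fndc1, 8.90 for Xlr, 7.92 for Prrg3, 7.61 for Zfp775, 7.33 for Nap1l5, 6.87 for Matn4, 6.85 for Cspg4, 6.49 for Pcdhga5, 5.83 for Vax2 and 5.57 for Mid1ip1. Where a cocktail was listed at 0 (Zfp982, Zfp985, Olfr726, Slc5a8, Gucy1b1, Col26a1, Repin1, Zfp775, Hoxa9, Fndc1 and Xlr among them) the size depends on the added 1.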

How the results depend on the processing

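Depth is unknown and the 10 top genes per library are tied, so differences among the most abundant genes and low-level zeros cannot be resolved. With a mean of at least 100, the single-cocktail counts were 7 for BKF, 9 for KMF and 10 for 4F, the opposed genes 17, and class genes repeated in the embryonic lines 0. With 1.5-fold limits the unequally shared genes were 3445 and the single-cocktail counts 20 (BKF), 31 (KMF) and 34 (4F); with 4-fold limits 553 genes were unequally shared, 3 were changed by 4F alone and 12 were opposed. Taking each group's mean as 1 sample, an alternative chosen after seeing the data, left 2401 genes higher and 2026 lower in the lines. That fit measured spread between the 4 line groups, with 1 fibroblast value, where the main fit measured it between paired libraries. How far this accounts for the lower counts was not tested.

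Leaving out 1 library at a time gave 5114 to 5973 genes higher and 4233 to 4813 lower in the lines, 8924 to 10031 called in BKF, 9184 to 10311 in KMF, 8764 to 9946 at passage 8 and 8794 to 9929 at passage 18. BKF against KMF gave 894 to 2867, 4F against BKF 1940 to 3262, 4F against KMF 2493 to 4532 and passage 18 against 8 gave 3907 to 5890. Genes changed alike numbered 1119 to 1295 higher and 970 to 1068 lower, unequally shared 1768 to 1972, BKF alone 8 to 40, KMF alone 11 to 30, 4F alone 15 to 21 and opposed 17 to 28. In the embryonic comparison 868 to 1800 genes were called, 1 to 3 class genes repeated, 65 to 104 genes agreed in direction and 50 to 99 opposed it. Against neural stem cells the lines gave 5808 to 6339 calls, the fibroblasts 8803 to 9881, and 217 to 243 genes were kept.

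Of 5856 recomputed values for single genes, 5708 were counted as the same, 126 lost their call, 19 gained one and 3 reversed. The same means an unchanged side of the threshold, or a change of sign where neither fit gave a call. For a single-cocktail gene the value was its smallest difference from another cocktail, so its class was not recomputed here. All 3 reversals came with 2.5-year tail-tip fibroblasts as controls: Ddx3y 11.3, Myc -0.68 and Xist -6.87.

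Same-numbered libraries of different groups did not deviate together (r of -0.031 to 0.036 over 10 pairs of groups), so the numbers do not pair the samples. With a replicate block 5936 genes were higher and 4761 lower in the lines, BKF and KMF differed in 2031, and the single-cocktail counts were 11, 18 and 17; Higd1a lost its difference (limma adjusted p = 0.051) and Nanog gained a call (0.0399).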

Other observations

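Potassium channel genes rose in 9 of 13 cases and fell in 1 (median 4.01, against 0.10 over all tested genes), and YAP target genes fell in 10 of 12 and rose in 1 (median -1.83). Of 19 genes for collagen folding and secretion, 17 fell and 1 rose (median -2.89), and of 15 matrix metalloproteases and their inhibitors 11 fell and 2 rose (median -4.14). Axon guidance genes were split, with 10 higher and 12 lower of 23. Of 18 cholesterol synthesis genes 7 rose and none fell (median 0.48). Of all tested genes 36.7% rose and 29.4% fell, so the rises in the cholesterol list lay near the share of all.

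Nkx2-2, a factor of the ventral spinal cord and oligodendrocyte lineage, was at 0 in the fibroblasts, 38 and 49 in BKF, 1 in both KMF libraries, 56 and 100 at passage 8, and 78 and 134 at passage 18. Hoxd8 was at 1 and 0 in the fibroblasts, 243 and 266 in BKF, 1 and 2 in KMF and 72 to 132 in 4F, and Hoxb6 reached 1002 and 1383 in BKF against 46 to 138 in the other lines. Both libraries of KMF were thus near 0 for Nkx2-2 and Hoxd8. Kdm5d, a Y-linked histone demethylase, was at 844 and 802 in the fibroblasts, 278 and 321 in BKF, 1648 and 1787 in KMF and 1444 to 2264 in 4F.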
